A study of Mus musculus with 6 samples.

Results

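The 3 genes described here, Depp1, Trim63 and Gabarapl1, are linked in the literature to the FoxO transcription factors and to the breakdown of muscle protein and organelles. They were chosen by symbol from the authors' deposited list of 470 array features that differed between refed and fasted muscle, and they are 3 of the 134 entries of that list with a gene symbol, on an array table of 41345 features. The list spells Depp1 as 8430408G22Rik, its older name. Each gene has 1 feature: 17462145 for Depp1 (chromosome 6, band E3), 17419731 for Trim63 (chromosome 4, band D3) and 17463550 for Gabarapl1 (chromosome 6), and no other feature of the table carries the same values as any of them. The entries of the list differ between these same arrays by at least 1.501-fold, and the p-value of the list favours a small spread within the groups. The differences between the groups are therefore given below as a description and are not evidence of their own.

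The data are log2 signals of 6 arrays of tibialis anterior, the muscle that lifts the foot and is made mostly of fast fibres, from male C57Bl/6 mice aged 18 weeks. All mice lost access to food at 1800 hr. At about 0800 hr some were given food for 30 minutes (the refed group, arrays numbered 7, 9 and 11) and the others were not (the fasted group, arrays 1, 3 and 5). Both groups then went without food for 4 hr more until the muscle was taken, so the refed muscle is that of mice some hours after a meal and not of mice with constant access to food. The labels do not say that each array stands for a mouse of its own, and the errors below measure the spread between arrays. The comparison asks how the muscle's transcripts differ after a meal.

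In fasting, low insulin leaves the FoxO factors unphosphorylated by Akt and therefore in the nucleus, where they activate genes of the ubiquitin-proteasome system and of autophagy. Feeding raises insulin and moves them out again. Glucocorticoids, which are high in a fast, act on several of the same genes through the glucocorticoid receptor. Trim63 codes for MuRF1, a ubiquitin ligase of the sarcomere that marks thick-filament proteins for the proteasome and is a standard marker of muscle atrophy. Gabarapl1 codes for an ATG8-family protein that is attached to the autophagosome membrane and takes part in its formation and in cargo capture. Depp1 codes for a small protein that FoxO factors induce in several cell types and that has been tied to autophagy and to oxidative stress.

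The promoters of the 3 genes are shown because FoxO factors and the glucocorticoid receptor act through short DNA motifs that can be looked for in the letters. The windows are from RefSeq (GRCm38.p6), run from 250 bases before to 50 bases after the annotated start, and were matched by symbol for 3 of 3 genes. Capitals mark letters that match a FoxO motif or a glucocorticoid receptor half-site on either strand. The FoxO factors bind the form GTAAACA best. Its variant with T as the sixth letter is GTAAATA, and the variants that begin with A are ATAAACA for the former and ATAAATA for the latter. The half-site is AGAACA. The Depp1 window lies at chr6:116650434-116650733, that of Trim63 at chr4:134314870-134315169 and that of Gabarapl1 at chr6:129532942-129533241, all on the plus strand.
Depp1: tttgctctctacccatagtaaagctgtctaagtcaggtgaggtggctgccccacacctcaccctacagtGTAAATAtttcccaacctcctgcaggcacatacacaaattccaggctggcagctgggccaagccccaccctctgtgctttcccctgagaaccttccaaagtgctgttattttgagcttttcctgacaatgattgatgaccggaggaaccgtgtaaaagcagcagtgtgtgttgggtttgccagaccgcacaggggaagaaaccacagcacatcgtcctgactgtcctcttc
Trim63: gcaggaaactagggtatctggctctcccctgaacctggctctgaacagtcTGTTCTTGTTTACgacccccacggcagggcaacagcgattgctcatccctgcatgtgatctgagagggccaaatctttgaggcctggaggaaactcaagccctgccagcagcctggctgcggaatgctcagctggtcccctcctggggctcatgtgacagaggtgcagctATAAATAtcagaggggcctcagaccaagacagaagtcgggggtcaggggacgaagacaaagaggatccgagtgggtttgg
Gabarapl1: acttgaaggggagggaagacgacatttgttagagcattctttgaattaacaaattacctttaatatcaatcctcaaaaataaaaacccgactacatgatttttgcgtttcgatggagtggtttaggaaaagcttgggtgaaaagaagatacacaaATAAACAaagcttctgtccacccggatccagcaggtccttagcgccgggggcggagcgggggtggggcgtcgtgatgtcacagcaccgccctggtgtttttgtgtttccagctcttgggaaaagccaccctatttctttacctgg

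The Trim63 window held a FoxO form and a glucocorticoid half-site side by side. The half-site, read as TGTTCT, spans positions -200 to -195 before the start, and the FoxO form, read as TGTTTAC on this strand, follows without a gap at -194 to -188. A GTAAACA form directly beside a half-site was found in 5 of 32851 windows of the same length (0.0152%), a search that was made after this window had been seen. As background, the glucocorticoid receptor and FoxO1 are known to act together on the Trim63 promoter through adjoining sites. The window also held ATAAATA at -30 to -24, where these letters are part of a TATA box.

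The Depp1 window held GTAAATA at -181 to -175, and the Gabarapl1 window ATAAACA at -95 to -89. The latter form was added after the window had been read, and ATAAATA was likewise not among the planned forms. Of all windows, 3.65% held GTAAACA, 3.04% GTAAATA, 4.60% ATAAACA and 5.60% ATAAATA, and 15.0% at least 1 of the 4. The half-site was in 19.0% of windows. The insulin response form CAAAACA (6.28% of windows), the E-box CACGTG (7.15%) and a pair of half-sites facing each other with 3 bases between them (0.00913%) had no match in any of the 3 windows. A match is a match of letters and does not show binding.

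Depp1 had the largest difference of the 3. Its log2 signal was 10.33, 9.79 and 9.62 on fasted arrays 1, 3 and 5, and 7.56, 8.05 and 8.28 on refed arrays 7, 9 and 11. The fasted arrays were all higher than the refed ones, with 1.33 log2 units between the lowest fasted and the highest refed value. Fasted muscle averaged 9.91 ± 0.37 and refed muscle 7.97 ± 0.37 (SD, n = 3 each), a refed minus fasted difference of -1.95 (SE 0.25), or 3.85-fold lower in refed muscle, with a 95% interval of the log2 difference from -2.53 to -1.36 that takes no account of the selection.

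Trim63 gave a very bright signal, above 99.4% of all features, and a smaller difference. Its values were 12.03, 11.75 and 11.60 on fasted arrays 1, 3 and 5, and 11.11, 10.96 and 11.33 on refed arrays 7, 9 and 11. The groups did not overlap, but the gap between them, 0.28 log2 units, was narrower than the 0.43 spanned by the fasted arrays. The difference was -0.66 (SE 0.16; 95% interval -1.04 to -0.29), or 1.58-fold lower in refed muscle. It is the member nearest to the 1.501-fold at which the list ends.

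Gabarapl1 had a difference of about the size of that of Trim63. Its values were 10.33, 10.59 and 9.98 on fasted arrays 1, 3 and 5, and 9.70, 9.32 and 9.77 on refed arrays 7, 9 and 11. All refed values were below all fasted ones, by a gap of 0.21 log2 units, the narrowest of the 3 genes. The difference was -0.71 (SE 0.20; 95% interval -1.17 to -0.24), or 1.63-fold lower. Trim63 and Gabarapl1, neighbours in the order of differences, were 0.043 log2 units apart, less than the spread between replicates of either, and exchanged places when fasted array 3 or refed array 9 was left out. Depp1 had the largest difference in each of these fits.

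**Figure D1:**
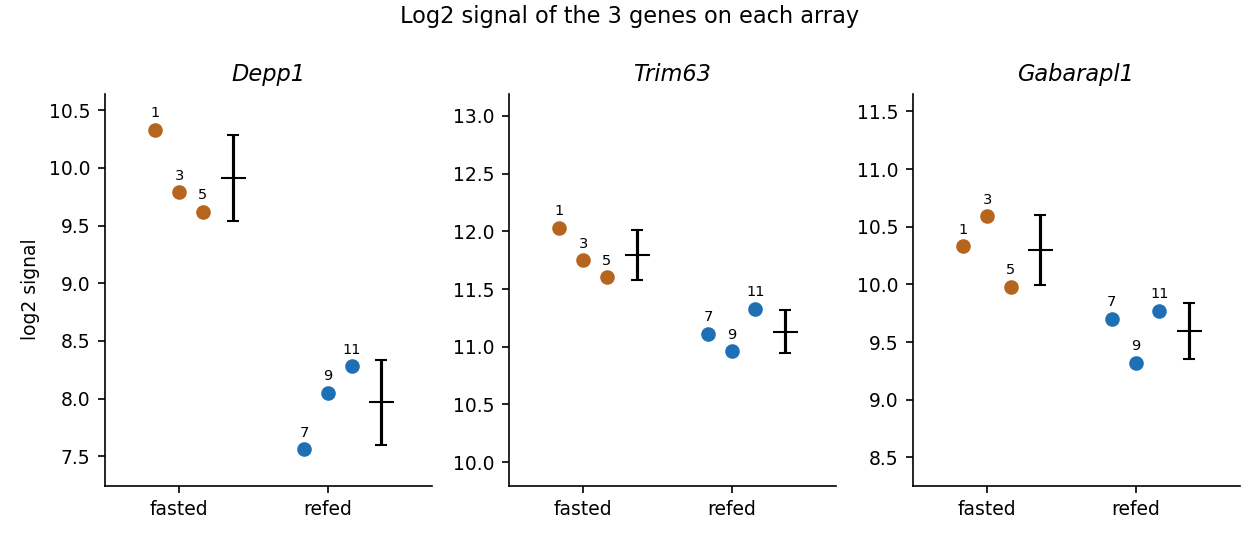
Log2 signal (vertical axes, all of the same length) of Depp1, Trim63 and Gabarapl1 on 3 fasted and 3 refed arrays, with array numbers above the points and the group mean ± SD beside them. The refed points lie below the fasted points in each panel, with the widest gap for Depp1 (1.33 log2 units) and the narrowest for Gabarapl1 (0.21).

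None of the 3 differences passed the test across the array. The limma fit over all 41345 features called 0 at an adjusted p under 0.05 (0% of features), and the 3 genes had Benjamini-Hochberg adjusted p-values of 0.801 (Depp1), 0.935 (Trim63) and 0.964 (Gabarapl1). At an unadjusted p under 0.05 limma found 2009 features (4.86%), of which 1151 were lower in refed muscle (2.78%). The linear model without moderated variances also called 0 after adjustment and found 1851 at the unadjusted threshold (4.48%). The groups did not overlap for 3950 features (9.55%), for 2076 of them with refed values lower (5.02%), and 395 of these were at least 1.5-fold lower (0.955%). All 3 genes are among the 395, and nothing is read from this count because the list was drawn up on the same contrast.

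All 3 genes were bright: Depp1 lay above 94.6% of features and Gabarapl1 above 97.5%. Of the 246 features within 0.5 log2 units of Trim63's mean level, 0 had as low a difference, and of the 883 around Gabarapl1 only 1 did. Among all features, bright and dim, 635 had a difference as low as that of Trim63 and 559 one as low as that of Gabarapl1. Of the 1621 features around Depp1, 6 had a difference as low, from -2.26 to -2.003. These ranks restate the selection on the same difference and are given only to place the genes on the array.

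Those 6 features, all without a gene name here, were low on 1 refed array only. On refed array 7 they stood between 3.10 and 4.03, and on the other 5 arrays between 9.71 and 10.62, so that the groups overlapped in all 6. Refed array 7 had 29 features at least 3 log2 units below the median of the other arrays, against 0 to 5 on each of the others. Depp1 was also lowest on refed array 7, at 7.56, but its arrays 9 and 11 were low as well. Without array 7 its difference was -1.74.

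**Figure D2:**
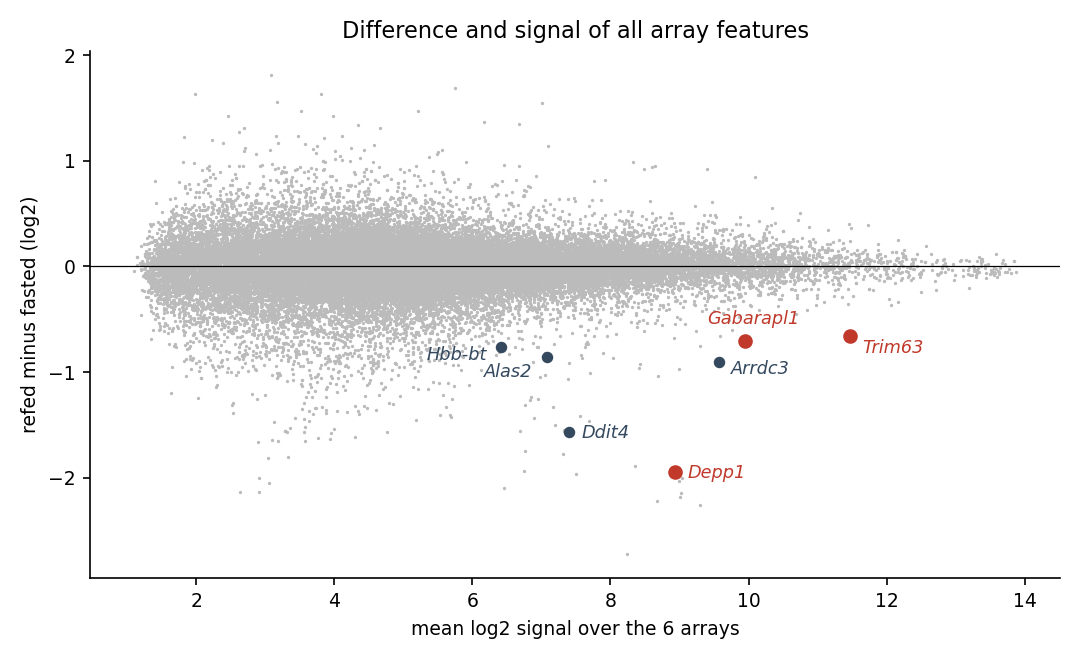
Refed minus fasted difference (log2, vertical axis) against the mean log2 signal over 6 arrays (horizontal axis) for 41345 features in grey, with the 3 genes in red and selected other named features in dark blue. Depp1, Trim63 and Gabarapl1 lie below the band of features of the same brightness, and the grey points around -2 beside Depp1 are features that were low on refed array 7 alone.

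Within the groups the 3 genes shared some extremes and not others. Their within-group SD was 0.37 for Depp1, 0.28 for Gabarapl1 and 0.20 for Trim63, against medians of 0.16, 0.16 and 0.14 for features of like level, so each varied more between arrays of one group than most features as bright. Fasted array 1 was the highest fasted array for Depp1 (0.42 above the group mean) and Trim63 (0.24 above), while fasted array 3 was the highest for Gabarapl1 (0.29 above). Fasted array 5 was the lowest fasted array and refed array 11 the highest refed array for all 3. The lowest refed array was array 7 for Depp1 and array 9 for Trim63 and Gabarapl1.

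Transcripts of red blood cells were lower in refed muscle, and inside the groups Gabarapl1 ranked the arrays as they did. Of the 14 red cell markers listed, 2 have a named feature. Alas2, which makes the first haem precursor in erythroid cells, was at 7.54, 7.93 and 7.04 on the fasted arrays and 6.78, 6.27 and 6.90 on the refed ones. The beta globin Hbb-bt was at 6.78, 7.28 and 6.36 on the fasted arrays and 6.21, 5.55 and 6.35 on the refed ones. The mean of the pair ran from 6.70 to 7.61 in fasted and from 5.91 to 6.63 in refed muscle, against array medians of 5.02 to 5.06. The gap between the groups of Hbb-bt was only 0.00087 log2 units. The other 12 markers are not analysed here. In a piece of whole muscle, fewer cells of a type and less RNA per cell cannot be told apart.

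Gabarapl1 ranked the arrays exactly as Alas2 and Hbb-bt did: array 3 above 1 above 5 among the fasted, and 11 above 7 above 9 among the refed. That order in both groups was shared with Alas2 by 1041 features (2.52%), about the share that arrays ordered at random would give. The match of order is therefore a description only. Trim63 had the same order among the refed arrays and another among the fasted ones, and Depp1 another order in each group. The fit with the mean of Alas2 and Hbb-bt as a covariate gave a slope of 0.65 log2 units of Gabarapl1 per unit of the red cell mean. The slope was 0.28 for Trim63 and 0.10 for Depp1. These slopes rest on few arrays and have no error given, so their order is a description only. The order of the slopes was another for the platelet transcript Ppbp, described below.

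With that covariate the difference of Gabarapl1 was -0.17 (SE 0.17), that of Trim63 -0.44 (SE 0.24) and that of Depp1 -1.86 (SE 0.41). With Alas2 alone they were -0.11, -0.40 and -1.82, and with Hbb-bt alone -0.24, -0.47 and -1.90. The 95% intervals under the red cell mean were -0.60 to 0.25 for Gabarapl1, -1.02 to 0.15 for Trim63 and -2.87 to -0.86 for Depp1. They take no account of the selection of the genes on this contrast. No verdict is read from whether an interval holds 0. Alas2 and Hbb-bt are named only because they too entered the list made on these arrays, so their own difference between the groups is in part one of selection. How far the covariate moves a gene's difference depends on that and on the gene's slope inside the groups, given above.

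**Figure D3:**
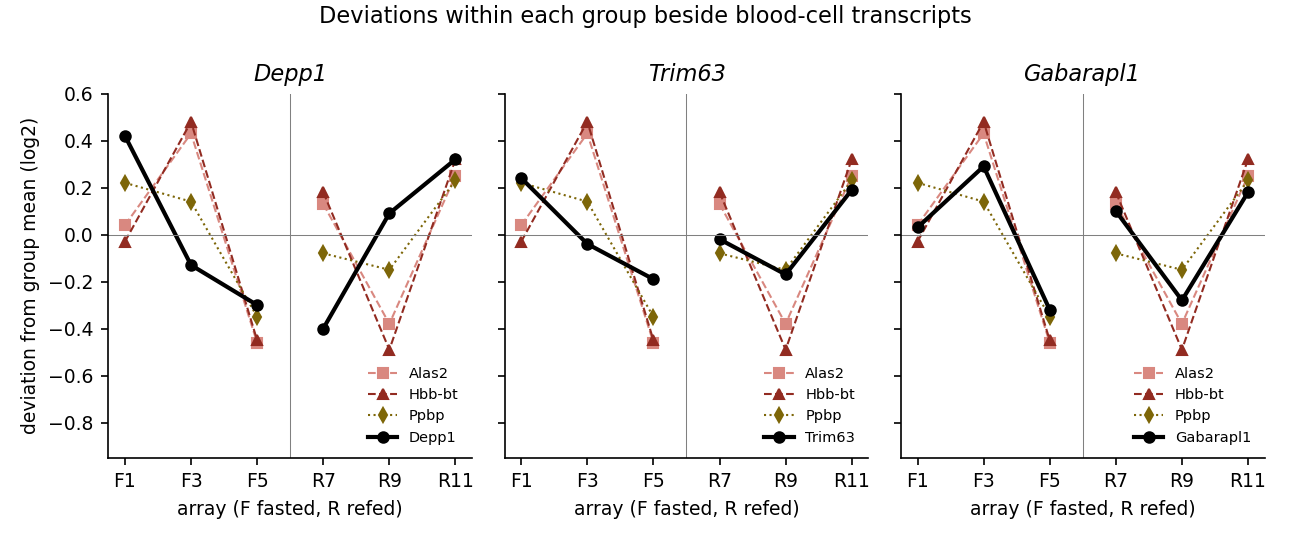
Deviation of each array from its group mean (log2, vertical axes) on the 6 arrays (horizontal axes) for each of the 3 genes in black, beside the red cell transcripts Alas2 and Hbb-bt and the platelet transcript Ppbp. Lines only join the points of a group; Gabarapl1 takes the order of Alas2 and Hbb-bt in both groups, and Depp1 in neither.

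The named features most like each gene over the 6 arrays were found by the root mean square difference between profiles, each centred on its own mean, among 21 named features of at least median level. Nearest to Depp1 was Ddit4 (0.36 log2 units), the stress-induced inhibitor of mTORC1, followed by the alpha-arrestin Arrdc2 (0.54), the transcription factor Cebpd (0.55) and the alpha-arrestin Arrdc3 (0.55). No feature of at least median level, named or not, was nearer to Depp1 than Ddit4, and 1 dimmer feature was. Ddit4 had values of 8.87, 7.71 and 7.99 in fasted and 6.57, 6.24 and 7.05 in refed muscle. Inside the groups the orders differed. Ddit4 ranked array 1 above 5 above 3 and array 11 above 7 above 9. Depp1 ranked array 1 above 3 above 5 and array 11 above 9 above 7.

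Nearest to Trim63 was Ppbp (0.10), a chemokine gene of platelets and their precursors, then the kinase gene Map3k6 (0.13), Arrdc3 (0.14) and Gabarapl1 (0.18). Nearest to Gabarapl1 were Alas2 (0.12), Ppbp (0.14), Hbb-bt (0.15) and Trim63 (0.18). These are the nearest of the named features only. Among all features, 5 were nearer to Trim63 than Ppbp was, and 121 were nearer than Gabarapl1. For Gabarapl1, 9 features were nearer than Alas2, 21 nearer than Hbb-bt and 70 nearer than Trim63. For Depp1, 17 were nearer than Arrdc2. This distance counts the group difference as well as the pattern inside the groups, so features with a difference far smaller than that of Depp1, the blood-cell transcripts among them, could not come near it whatever their order of arrays. Ppbp was at 7.23, 7.15 and 6.66 in fasted and 6.25, 6.18 and 6.57 in refed muscle. With Ppbp as a covariate, a fit chosen after this likeness was seen, the differences were -0.20 (SE 0.23) for Trim63, -0.13 (SE 0.28) for Gabarapl1 and -1.28 (SE 0.39) for Depp1. The slopes per log2 unit of Ppbp were 0.99 for Depp1, 0.85 for Gabarapl1 and 0.68 for Trim63. Trim63 ranked the arrays of both groups as Ppbp did, and Depp1 those of the fasted group. Ppbp was picked as the named profile nearest to Trim63. That choice favours a like order of arrays and a smaller difference of Trim63 with Ppbp as covariate, so neither is evidence of its own. How many features share the order of Ppbp was not counted. As with the red cell pair, the likeness is partly one of selection, since all named features come from the same list.

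**Figure D4:**
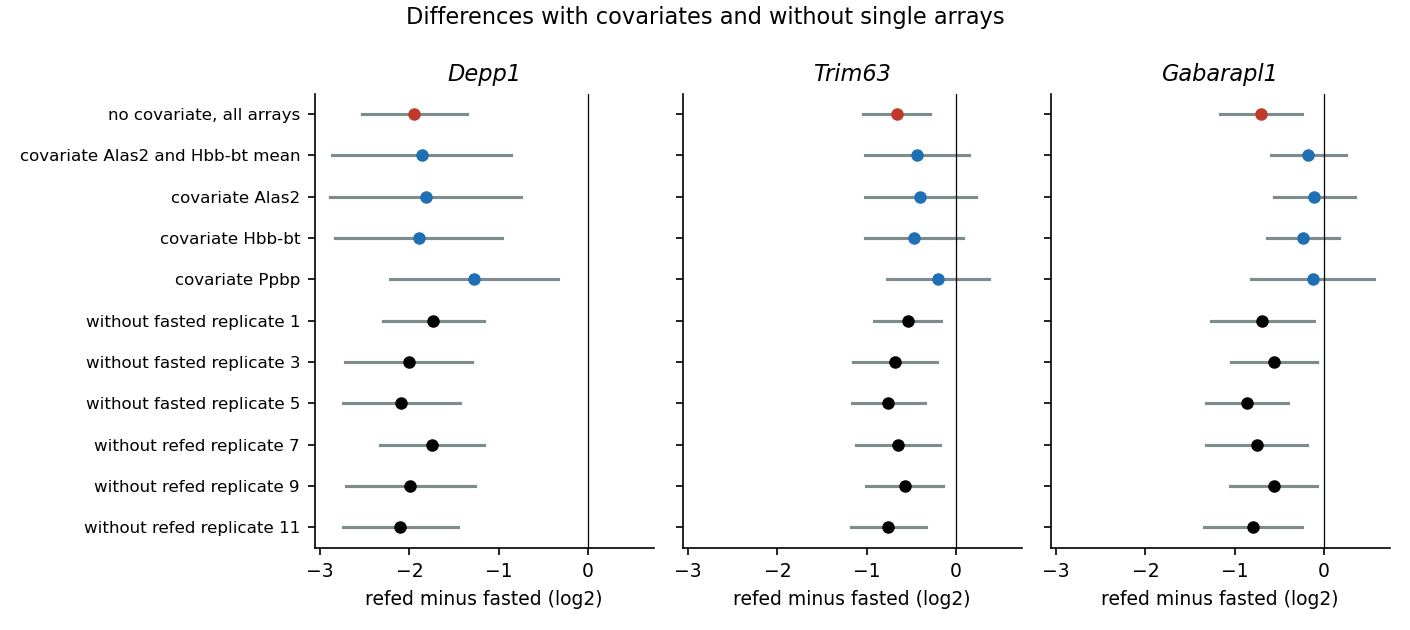
Refed minus fasted difference (log2, horizontal axes) of the 3 genes, with 95% intervals as grey bars, for all arrays with no covariate (red), with a blood-cell transcript as covariate (blue) and without each array in turn (black). Depp1 stays between -2.10 and -1.28, while Trim63 and Gabarapl1 come nearest to 0 with a covariate, at -0.20 and -0.11.

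Around the 3 genes, little of the pathway carries a name in the data used here. Of 128 genes in 5 lists for FoxO control, FoxO targets, atrophy proteolysis, autophagy and the glucocorticoid response, 9 have a named feature, and all 9 were lower in refed muscle, with a median difference of -0.92. A gene is named only if the authors listed it, so the background is that of the 134 named entries, of which 84 were lower and 50 higher, with a median of -0.63, and not that of all features, whose median was 0.00052. The 9 include the 3 genes described here, and the lists were chosen with earlier results of these data known. No excess over the named entries is therefore read from the count or the median, and the count says nothing about the other 119 genes. Of the 19 FoxO factors and upstream regulators 0 are named, of the 31 ubiquitin ligase and proteasome genes Trim63 alone, and of the 35 autophagy genes Gabarapl1 alone. Fbxo32, the other standard ubiquitin ligase of atrophy, and the FoxO genes themselves are not analysed here.

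The 28 other FoxO targets include 3 named ones, Depp1, Ddit4 and Angptl4. Angptl4, an inhibitor of lipoprotein lipase, was at 7.99 ± 0.35 in fasted and 7.15 ± 0.35 in refed muscle (SD, n = 3), a difference of -0.84. Of the 24 glucocorticoid response genes 7 are named, Trim63 among them. Their differences ran from -1.57 for Ddit4 to -0.66 for Trim63, the smallest of the 7, with a median of -0.92. None of these passed limma over all features (0% of features were called).

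Promoter windows were found for 4 of the 6 named genes of these lists that are not members, namely Ddit4, Arrdc2, Arrdc3 and Gadd45g. None of their windows held any of the 4 FoxO forms or the half-site, and that of Gadd45g, a stress-response gene, held CACGTG. All 3 members held a FoxO form, Gabarapl1 only through a form added after its window had been read. With the 3 planned FoxO motifs, Depp1 and Trim63 had a match and Gabarapl1 had none. Of all windows, 12.3% held at least 1 of these planned motifs. The set of 4 forms was changed after reading a member's window, and only 15.0% of all windows held any of them. No difference between the members and the 4 other genes is therefore read from these matches. The markers of the labelled tissue could not be checked, since 0 of 15 muscle fibre markers carry a name, and the same holds for the fibroblast, adipocyte and macrophage markers. Of 4 satellite cell markers 1 is named, the myogenic transcription factor Myod1, at 7.06 ± 0.25 in fasted and 7.70 ± 0.14 in refed muscle (SD, n = 3). Of 8 endothelial markers 1 is named, the apelin receptor Aplnr, at 6.42 ± 0.19 in fasted and 7.19 ± 0.29 in refed muscle. For both, all refed values lay above all fasted ones, opposite in direction to the blood-cell transcripts, and neither passed limma over all features. Over all features the groups did not overlap in 9.55%, either direction. Both genes are named only because they entered the list made on this contrast, so nothing about cell types is read from them.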

How the data were processed

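The authors deposited 1 table of processed log2 signal per array feature, with 41345 features and 6 columns, all used. Its values ran from 0.62 to 13.9 and its column medians from 5.02 to 5.06. The submitters' processing notes name Partek; the steps from scanned image to features, the normalization and the build are not given in the sources. Per the labels' protocols, RNA came from pieces of about 25 mg of muscle and 300 ng were labelled with a whole-transcript kit. From the authors' deposited list only symbols, identifiers and annotation were used, and its ratio for refed over fasted arrays to check the scale: log2 of that ratio equalled the difference of the group means for all 470 entries within 1.81e-05. Arrays were close to each other, with Pearson's r across features of 0.978 to 0.982 within and 0.979 to 0.983 between groups.

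A linear model of group was fitted to all features with limma 3.58.1 (R 4.3.3; eBayes, no covariate), and features with a Benjamini-Hochberg adjusted p under 0.05 counted as called. The fit was tested on simulated data with changes larger than those of the 3 members. That test does not show whether changes of their size would be called. Standard errors and 95% intervals are those of the fit, and the number of arrays limits the precision. Named genes were the 3 members, the 4 named features nearest to each (without clone, microRNA and other provisional or small RNA names), the members of the process lists and the red cell markers; Ppbp, Map3k6 and the others entered by this rule, and Myod1 and Aplnr, named members of the cell type lists, were added afterwards. The members and lists were chosen with earlier results of these data known. Motifs were searched in RefSeq promoter windows of 300 bases with Python 3.11.15, and figures were drawn with matplotlib 3.10.9. Alternatives covered normalization, a filter on dim features, array weights, variance moderation, blood-cell covariates and leaving out each array.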

Additional observations from a re-analysis of the deposited data

How the results depend on the processing

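The limma fit called 0 features at adjusted p under 0.05 in each of 15 alternatives, and the 3 differences stayed below 0 in all 16 alternatives run for each. Filters and moderation cannot change a difference, and leaving out or weighting arrays cannot reverse one whose groups do not overlap, so these counts add no evidence. Quantile normalization gave -1.96 for Depp1, -0.65 for Trim63 and -0.72 for Gabarapl1, and median centring -1.94, -0.65 and -0.70. Without single arrays the values were -2.10 to -1.73 for Depp1, -0.76 to -0.54 for Trim63 and -0.86 to -0.56 for Gabarapl1. Values moved by more than the spread between replicates under covariates alone, and the cause was not tested: Trim63 to -0.44 with the mean of Alas2 and Hbb-bt and -0.40 with Alas2, Gabarapl1 to -0.17, -0.11 (Alas2) and -0.24 (Hbb-bt), and, with Ppbp, added after seeing the data, Depp1 to -1.28, Trim63 to -0.20 and Gabarapl1 to -0.13. The gap between Trim63 and Gabarapl1 of 0.043 became -0.26 with the red cell mean and -0.29 with Alas2, and ran from -0.12 to 0.15 when arrays were left out. The labels pair no fasted array with any refed array, so no paired analysis was run.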
